A study of Mus musculus with 6 samples.

Results

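The genes described here encode the proteins of the cytosolic ribosome, chosen by symbol alone. They are genes named Rpl or Rps with a number, plus Rplp0, Rplp1, Rplp2 and Rpsa. Rps27l, Rpl36al, the S6 kinase genes and symbols with -ps are left out. The rule found 87 of the 32544 genes in the table. Of these, 77 are canonical (46 for the large and 31 for the small subunit), 6 are counted as paralogs and 4 are further copies; of the paralogs, Rps4l is annotated as a transcribed processed pseudogene with no coding sequence. RNA came from S2 and S3 segments of kidney proximal tubules of C57Bl/6 mice, taken 24 h after 1 injection of aristolochic acid I (AA), a plant nephrotoxin that forms DNA adducts, or of its solvent dimethyl sulfoxide (DMSO). The stated dose was 3 mg/kg for both. Tubules were dissected by hand, 5 to 10 were pooled per kidney, and polyadenylated RNA was sequenced in 3 libraries per group, called AA and DMSO replicates 1 to 3. Both groups were of the same strain, and the series text calls the animals control mice; their age and sex were not among the labels. Since nothing in the labels says that the libraries come from separate animals, p-values measure only the spread between these libraries.

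A ribosome is built from a large and a small subunit, each of ribosomal RNA and many small proteins, nearly all present once per ribosome. Their mRNAs carry a run of pyrimidines at the 5′ end (the 5′ TOP element) through which mTOR signalling sets how fast they are translated, and they are among the most abundant mRNAs of most tissues. Rpl5, Rpl11 and Rpl23 are also known to bind MDM2, the ligase that degrades p53, when they are not in ribosomes. Reverse-transcribed copies of these mRNAs lie scattered over the mouse genome, and a short read from a ribosomal protein mRNA may match both the gene and its copies.

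Those copies set what a row of the table measures, so the sequences of 3 genes are shown first, each beside the copy that held most of the reads outside its own row. They were chosen after the values were seen. The stretches are of 60 coding bases from the GENCODE M21 transcripts, 5′ to 3′, with capitals at the bases that differ between gene and copy. For Rps7 (chromosome 12) and Gm6472 (chromosome X), coding bases 1 to 60 held 2 differences; over the whole coding sequence there were 3 in 582 bases. For Rpsa (chromosome 9) and Rpsa-ps10 (chromosome 3), the same stretch held 1, out of 6 in 885 bases. For Rpl35 (chromosome 2) and Gm2000 (chromosome 1), coding bases 87 to 146 held the only difference in 369 bases.
Rps7: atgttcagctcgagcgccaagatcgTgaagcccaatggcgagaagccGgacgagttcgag
Gm6472: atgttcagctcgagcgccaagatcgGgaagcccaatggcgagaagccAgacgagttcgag
Rpsa: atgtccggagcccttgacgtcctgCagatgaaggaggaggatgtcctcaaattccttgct
Rpsa-ps10: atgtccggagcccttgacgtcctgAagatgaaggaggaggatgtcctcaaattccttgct
Rpl35: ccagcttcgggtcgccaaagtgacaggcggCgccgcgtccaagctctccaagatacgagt
Gm2000: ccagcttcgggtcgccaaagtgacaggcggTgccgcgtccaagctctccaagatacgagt
Other genes could not be told from a copy over the stretch they share. Rpl5 and Gm15500 were identical over 1018 aligned bases of the 2045-base Rpl5 transcript. Rpl10 and Rpl10-ps3 were identical over 740 of 799 bases, and Rpl12 and Gm10275 over 634 of 1242.

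Libraries held 13304877 to 17815915 counted reads in AA and 15958557 to 31136251 in DMSO, so 1 read stood for 0.0321 to 0.0752 CPM (reads scaled to the same library total). Of the 10 markers of S2 and S3 proximal tubule listed, 6 were lower in AA, and their summed level ran from 8158 to 9857 CPM in AA and from 15145 to 20451 CPM in DMSO. Summed markers of other cells were collecting duct 38.9 to 83.9 CPM in AA and 15.1 to 31.7 in DMSO (1 of 5 higher), leukocytes 37.0 to 58.2 and 12.2 to 15.9 (1 of 5 higher), fibroblasts 96.4 to 109 and 52.5 to 73.7 (2 of 4 higher), and endothelium 203 to 236 and 129 to 202 (2 of 5 higher). Thick ascending limb and distal tubule (320 to 1306 and 225 to 513), podocytes (54.4 to 91.4 and 37.5 to 63.6) and blood (1.73 to 24.1 and 0.803 to 6.58) had no marker that passed. No marker was at 0 in every library. The part of these shifts in the results below was not tested, and in such bulk samples fewer cells of a type and less RNA per cell cannot be told apart.

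AA tubules gave a larger share of their reads to ribosomal protein genes. The 87 rows together took 0.953%, 1.04% and 0.886% of the reads in AA replicates 1 to 3, against 0.733%, 0.701% and 0.693% in DMSO replicates 1 to 3. Every AA library lay above every DMSO library, and the means were 0.960% ± 0.0777 in AA and 0.709% ± 0.0212 in DMSO (SD, n = 3 each), a ratio of 1.35. The 95% Clopper-Pearson intervals were narrow, for example 0.947% to 0.958% in AA replicate 1 and 0.730% to 0.737% in DMSO replicate 1; they cover counting error only. The ratio was alike for both subunits, 1.35 for the large-subunit genes (0.576% ± 0.0379 in AA and 0.427% ± 0.0123 in DMSO) and 1.35 for the small-subunit genes (0.369% ± 0.0424 in AA and 0.273% ± 0.00887 in DMSO).

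The 905 copies outside the 87 rows also took a larger share in AA: 0.368%, 0.357% and 0.307% of the reads in AA, against 0.161%, 0.151% and 0.219% in DMSO, a ratio of means of 1.94. Of all reads on the family, copies held 27.9%, 25.5% and 25.7% in AA, against 17.99%, 17.70% and 24.03% in DMSO. DMSO replicate 3 therefore stood nearer to the AA libraries than to the other DMSO libraries in how its reads were divided, while its total did not: with copies included, the family took 1.32%, 1.40% and 1.19% in AA, against 0.894%, 0.852% and 0.912% in DMSO (ratio of means 1.47). The genes of the mitochondrial ribosome, a separate set of 77 genes, took 0.235% ± 0.0162 in AA and 0.211% ± 0.0122 in DMSO (ratio 1.11).

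**Figure D1:**
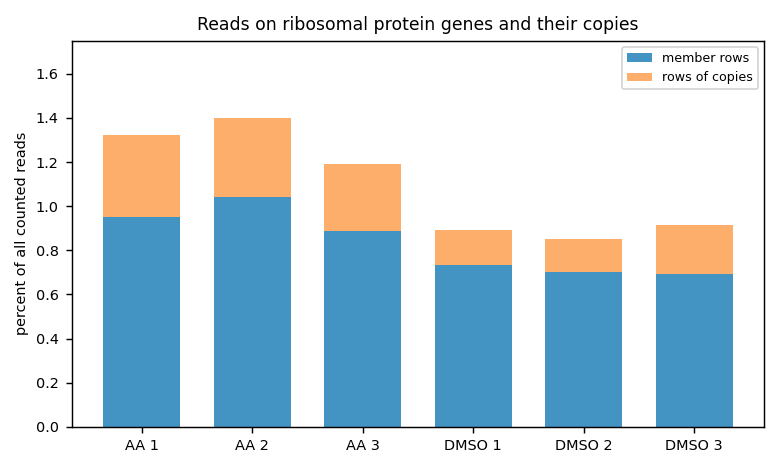
Percent of all counted reads per library (AA left, DMSO right) on the 87 ribosomal protein rows (blue) and on the 905 rows of copies (orange), stacked. The 3 AA libraries reach 1.19% to 1.40% and the 3 DMSO libraries 0.852% to 0.912%; the orange part is 0.219% in DMSO replicate 3, against 0.161% and 0.151% in the other DMSO libraries.

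As deposited, 42 of the 80 tested members were higher in AA, none was lower, and 38 did not pass (limma's moderated test, Benjamini-Hochberg adjusted over 14311 tested genes, threshold 0.05). Of all tested genes 30.9% were called: 22.3% were higher and 8.66% lower in AA. At an unadjusted p under 0.05, 48 members were higher and 0 were lower. Every adjusted call passes this threshold too, so at least 22.3% and 8.66% of all tested genes did. With voom, a count-based weighting in limma, 13 members were higher and 0 lower after adjustment, beside 1955 and 1994 of all tested genes. Before adjustment the voom counts of members were 29 and 1, beside at least those 1955 and 1994 of all tested genes. In 49 members every AA value exceeded every DMSO value, and in 0 the reverse held; of all tested genes 46.4% separated in this way, 33.4% with AA above and 13.0% with AA below. The median log2 fold change of the tested members was 0.42 (quartiles 0.20 and 0.61), beside 0.21 over all tested genes, and 71 of 80 were positive. All fold changes given are AA over DMSO, as log2(CPM + 1). Of the 80 tested members, 79 reached the filter of 1 CPM in all 6 libraries, so the filter did not select for a difference except in Rps3a2.

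The count depended on how the libraries were scaled. With library medians equalised, the median of all tested genes was -0.05 and that of the members 0.16, and 10 members were higher, 12.5% of those tested, near the 11.2% of all genes called higher under this scaling (16.9% were lower, and 0 members). TMM scaling left 13 of the 80 tested members higher, beside 1932 of all 14311 tested genes. Quantile normalization left 25 higher, beside 1822. No member was lower in either, beside 2064 and 2077 of all tested genes. Scaled to the family's own median, 2 stood above it, Rpl12 and Rps4l, and Rpl35a stood below it, beside 7.08% higher and 14.2% lower of all genes; since this scaling centres the members, it compares them with one another, and the low count says nothing of the family. Without AA replicate 2, 23 members were higher as deposited, beside 1842 of all tested genes.

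**Figure D2:**
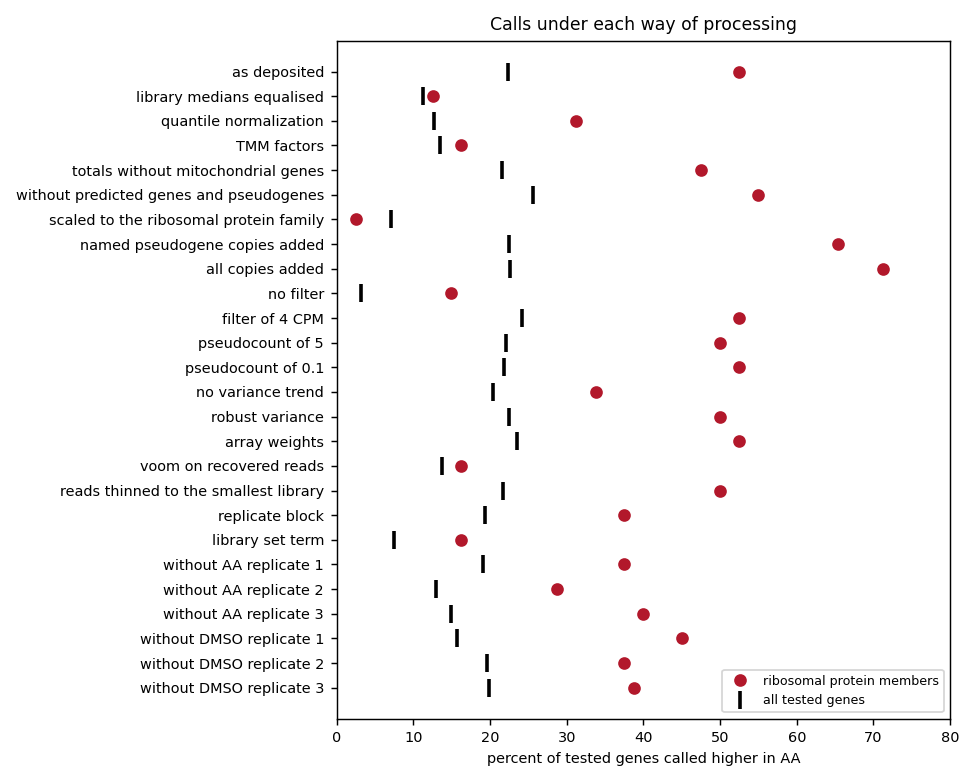
Percent of tested ribosomal protein members (red points) and of all tested genes (black bars) called higher in AA, under each way of processing. As deposited the members stand at 52.5% and all genes at 22.3%; with library medians equalised they stand at 12.5% and 11.2%, and scaling to the family centres the members by construction.

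Of the 7 members that were not tested, Rpl10l and Rpl39l, paralogs known from testis, had 0 reads in every library. Counting error alone allows up to 0.0964 CPM on such a row in the deepest and 0.225 CPM in the shallowest library. This bounds the row and not the gene, since reads can be listed on other rows, as for Rps12 below. Rpl3l, a paralog known from striated muscle, had 0.451, 1.01 and 0.431 CPM in AA and 0.544, 0.257 and 0.188 CPM in DMSO. The copies Rpl6l, Rps3a3 and Rps12l1 were also low, at most 2.73 CPM in AA and 17.95 CPM in DMSO. Rps12, a canonical gene of the small subunit, was at 1.13 CPM in AA replicate 1 and 26.0 CPM in DMSO replicate 2, with 0 in the other 4 libraries. Most reads of the family were listed on copies, mainly Rps12-ps3, identical to Rps12 over 450 aligned bases: gene and 24 copies together had 122, 127 and 116 CPM in AA, against 87.2, 86.4 and 88.5 CPM in DMSO. Summed in this way the Rps12 family was higher in AA (log2 fold change 0.47, SE 0.12, limma adjusted p = 0.014).

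Summing each canonical gene with its copies was therefore added after the values were seen, and the fit was repeated over the 14224 rows that then passed the filter. Of the 77 families, 55 were higher in AA and 0 were lower, against 22.6% higher and 8.89% lower over all tested rows. At an unadjusted p under 0.05, 61 were higher and 0 lower, beside at least those shares of all rows. The median log2 fold change was 0.53, beside 0.21 over all rows, and 76 of 77 families were positive. AA values lay above all DMSO values in 65 families and below them in 0, where 33.5% and 13.1% of all rows did so. With library medians equalised as well, 15 of 77 families were higher, 19.5% beside 11.4% of all rows, and 0 were lower. Without AA replicate 2, 36 families were higher. The 22.6% of all rows is from all 6 libraries and is no share for this fit. In the table without copies summed, leaving out this library gave 1842 of all tested genes higher, beside 3187 with all 6 libraries. A further fit had a term that sets DMSO replicates 1 and 2 apart, a split seen in the data and not given by the labels. The comparison then rests on DMSO replicate 3 alone as control, and that library is assumed to vary like the others. In this fit 12 families were higher, 15.6% beside 7.56% of all rows (3.06% lower), and their median change was 0.51; on the own rows 13 members were higher and 0 lower, beside 7.39% and 2.96% of all genes.

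The readings differed mainly in families with many reads on copies. In 40 families less than 90% of the reads lay on the gene's own row, and in 14 of these less than 50% did. Over the 40 families the median log2 fold change was 0.28 on the own row and 0.55 with copies summed, and 12 were higher on the own row against 29 with copies. The median within-group SD of their log2 values was 0.207 on the own row and 0.135 with copies, and it was smaller with copies in 31 of the 40. In the other 37 families, the median was 0.51 on either reading, with 27 higher on the own row and 26 with copies. Rps9, of the small subunit and named after its values were seen, had no copy in the table. It had 176, 119 and 135 CPM in AA, against 93.6, 108 and 73.1 CPM in DMSO (log2 fold change 0.64, SE 0.18, limma adjusted p = 0.021 in the summed table), and AA lay above DMSO throughout.

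**Figure D3:**
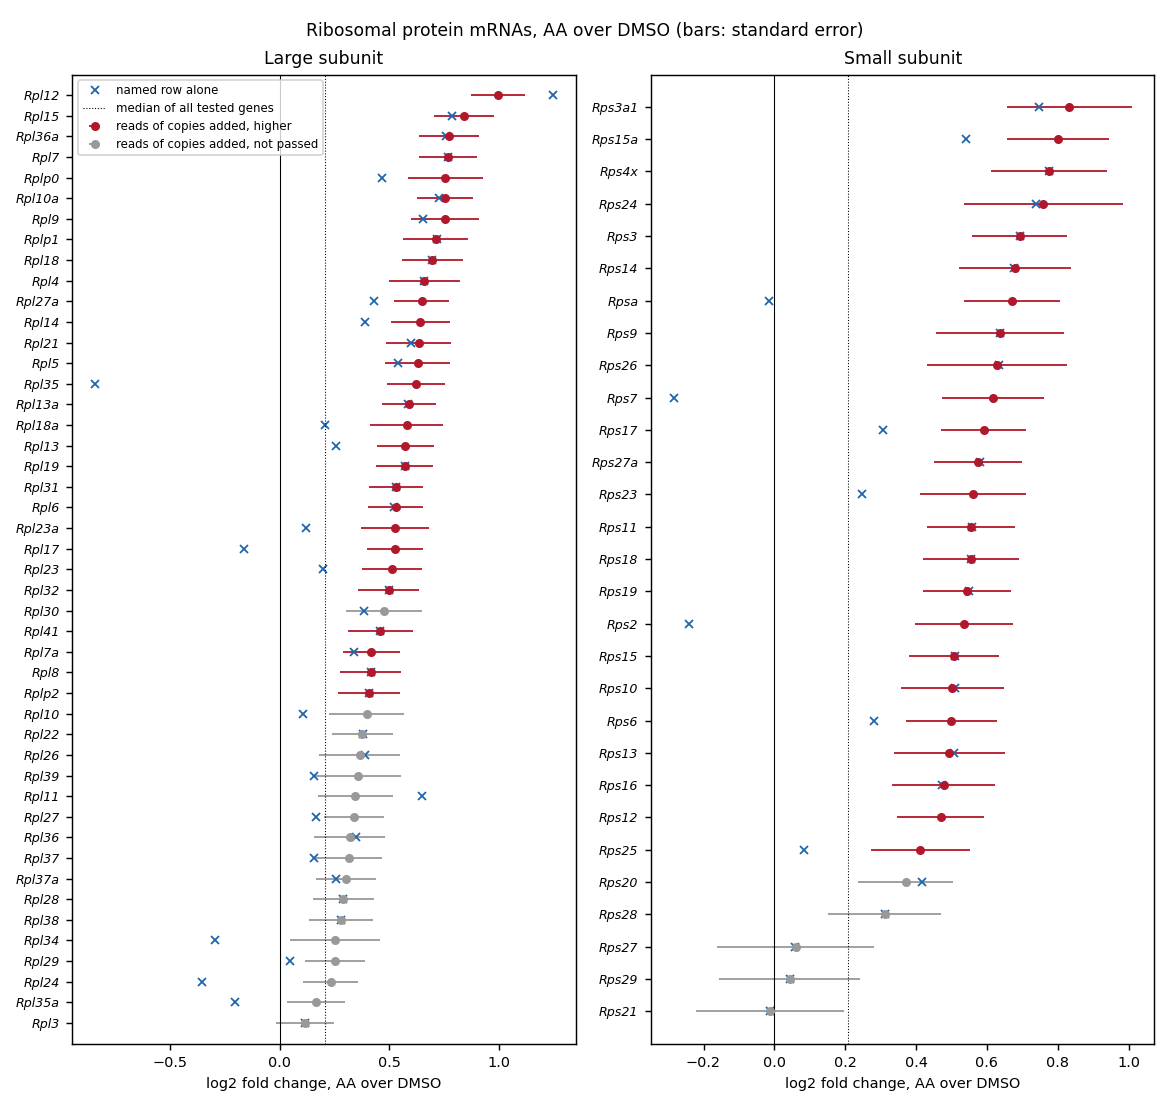
Log2 fold change of AA over DMSO for 75 of the 77 canonical genes, large subunit left and small subunit right. Circles with standard errors give each gene summed with its copies (red: higher at an adjusted p under 0.05, grey: not passed), crosses its own row alone (none for Rps12, which was not tested alone), and the dotted line marks 0.21, the median of all tested genes. Circles lie between -0.01 (Rps21) and 1.00 (Rpl12); crosses reach as low as -0.84 (Rpl35).

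In some genes the own row and the sum with copies differed in direction, and how reads were assigned between gene and copy was not tested. Rpsa, the laminin receptor protein of the small subunit, had 144, 169 and 110 CPM on its own row in AA and 179, 171 and 89.9 CPM in DMSO, with overlapping groups (log2 fold change -0.02, SE 0.25, limma adjusted p = 0.97). Rpsa-ps10 had 169, 186 and 167 CPM in AA and 19.7, 26.7 and 105 CPM in DMSO. The low copy values were those of DMSO replicates 1 and 2, where the own row was high. Together they gave 315, 359 and 279 CPM in AA, against 199, 199 and 196 CPM in DMSO, and the family was higher in AA (0.67, SE 0.14, adjusted p = 0.0038).

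Rpl35, whose protein lines the exit tunnel of the large subunit, showed a similar pattern. Its own row had 5.11, 8.14 and 8.401 CPM in AA and 32.8, 24.5 and 2.51 CPM in DMSO, with DMSO replicate 3 below the AA libraries. Gm2000 had 107, 123 and 111 CPM in AA and 51.3, 47.4 and 76.3 CPM in DMSO. The sums were 112, 132 and 119 CPM in AA, against 84.0, 72.1 and 78.9 CPM in DMSO (log2 fold change 0.62, SE 0.13, limma adjusted p = 0.00506, against -0.84 and adjusted p = 0.35 on the own row). With DMSO replicate 3 left out, the own rows of Rpl35 (-1.86), Rpl24 (-0.70) and Rpl34 (-0.77) were called lower in AA, the only members called lower in any fit run here apart from Rpl35a (-0.51) when scaled to the family.

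Rps7, which also binds MDM2, had 7.74, 19.98 and 12.6 CPM on its own row in AA and 22.9, 14.8 and 10.9 CPM in DMSO; Gm6472 had 159, 169 and 161 CPM in AA and 95.8, 81.0 and 119 CPM in DMSO. The own row overlapped between groups while the copy did not, and the sum was higher in AA (log2 fold change 0.62, SE 0.14, limma adjusted p = 0.00788). Rps2, a decoding-site protein of the small subunit and one of the 3 members highest per kilobase on own rows, had 190, 379 and 322 CPM in AA and 309, 343 and 360 CPM in DMSO (-0.24, SE 0.22, adjusted p = 0.429). Its copy Rps2-ps10 had 428, 252 and 199 CPM in AA and 46.5, 47.3 and 56.1 CPM in DMSO. AA replicate 1 was lowest on the gene and highest on the copy. Summed, Rps2 had 646, 651 and 554 CPM in AA, against 403, 438 and 433 CPM in DMSO, and was higher (0.54, SE 0.14, adjusted p = 0.0132).

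**Figure D4:**
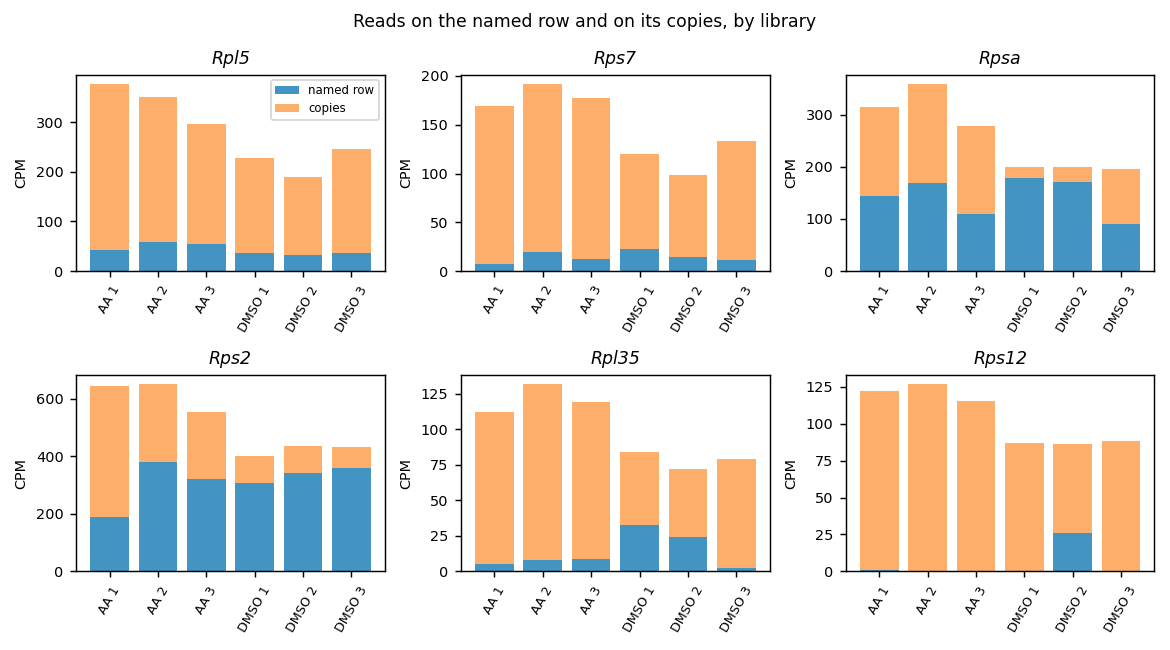
CPM per library on the named row (blue) and on all its copies (orange), stacked, for 6 genes, with AA libraries left and DMSO libraries right. In each panel the 3 AA columns are higher than the 3 DMSO columns, while the blue part alone is not, except for Rpl5; for Rpsa the DMSO totals are 199, 199 and 196 CPM although the blue part is 179, 171 and 89.9 CPM.

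The lateral stalk of the large subunit, which recruits elongation factors, is made of Rplp0, Rplp1 and Rplp2 on a base that includes Rpl12. All 4 families were higher with copies summed, where 55 of the 77 families and 22.6% of all rows were, and their median log2 fold change was 0.73, beside 0.53 over the families. Rpl12 had the largest change of the 77 families: 135, 142 and 133 CPM in AA, against 70.0, 66.2 and 68.0 CPM in DMSO (1.00, SE 0.12, limma adjusted p = 0.000204). On its own row, which held 21.5% of these reads, it had 32.3, 34.4 and 27.2 CPM in AA and 13.3, 10.2 and 14.5 CPM in DMSO (1.25, SE 0.19, adjusted p = 0.00101). Both readings separated the groups, and Rpl12 stood above the family median too (0.94, adjusted p = 0.0104). Rplp1 had 136, 149 and 107 CPM in AA and 80.5, 73.8 and 80.6 CPM in DMSO (0.72, SE 0.15, adjusted p = 0.00477), again without overlap. Rplp2 had 100.1, 109 and 90.8 CPM in AA and 70.8, 85.3 and 69.9 CPM in DMSO, a smaller step (0.41, SE 0.14, adjusted p = 0.0466). Rplp0 had 339, 240 and 274 CPM on its own row in AA and 176, 157 and 302 CPM in DMSO, where replicate 3 lay among the AA values (adjusted p = 0.138); with copies it was higher (0.76, SE 0.17, adjusted p = 0.00684).

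Of the proteins that form the 5S particle and bind MDM2, Rpl5 had 42.5, 57.8 and 54.4 CPM on its own row in AA and 36.1, 32.8 and 36.0 CPM in DMSO (log2 fold change 0.54, SE 0.16, limma adjusted p = 0.0252). Its copy Gm15500, on chromosome 7, held far more: 334, 292 and 240 CPM in AA and 191, 156 and 208 CPM in DMSO. Gene and copies summed were higher as well (0.63, SE 0.15, adjusted p = 0.0091). For Rpl11 the sum ended the call: its own row was higher (84.3, 97.8 and 82.1 CPM in AA, 49.0, 51.2 and 68.6 CPM in DMSO; 0.65, SE 0.16, adjusted p = 0.0114), but with copies the groups overlapped, at 126, 117 and 85.1 CPM in AA and 72.5, 94.9 and 87.8 CPM in DMSO (0.35, SE 0.17, adjusted p = 0.142). Rpl23 also binds MDM2 but is not part of the 5S particle. It had 128, 135 and 111 CPM in AA and 117, 108 and 100.3 CPM in DMSO, with overlap (0.20, SE 0.13, adjusted p = 0.277). With copies Rpl23 was higher (0.51, SE 0.14, adjusted p = 0.015).

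At the peptidyl transferase centre, where peptide bonds form, 1 of 3 genes was higher, on its own row and with copies summed. Of all tested genes 22.3% were higher, and of all rows with copies summed 22.6%, as were 29 of the 46 large-subunit families. Rpl3 had 233, 255 and 205 CPM in AA and 217, 207 and 212 CPM in DMSO, with overlap (log2 fold change 0.12, SE 0.13, limma adjusted p = 0.527); 99.6% of its family's reads were on its own row. Rpl10 had 102, 164 and 85.7 CPM in AA and 142, 90.8 and 88.7 CPM in DMSO (0.11, SE 0.24, adjusted p = 0.767), and 0.40 with copies (SE 0.17, adjusted p = 0.0937). Rpl8 was higher, at 202, 240 and 180 CPM in AA and 149, 154 and 159 CPM in DMSO (0.42, SE 0.14, adjusted p = 0.0415). Both Rpl3 and Rpl10 turned negative on their own rows when library medians were equalised (-0.14 and -0.15). Of 7 genes whose products line the exit tunnel, 2 were higher on their own rows, Rpl4 and Rpl31, and 5 with copies summed, beside the same shares. Rpl4 had 644, 479 and 444 CPM in AA, against 314, 309 and 356 CPM in DMSO (0.66, SE 0.16, adjusted p = 0.0117); it is named here after its values were seen, as are Rpl31 and the genes of which gene and copy were set side by side.

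Among members with the largest changes on their own rows, Rpl15 had 151, 176 and 173 CPM in AA and 99.7, 89.6 and 99.0 CPM in DMSO (log2 fold change 0.79, SE 0.13, limma adjusted p = 0.00145). Rpl7 had 319, 380 and 324 CPM in AA and 202, 188 and 208 CPM in DMSO (0.77, SE 0.13, adjusted p = 0.00187). Rps4x, the X-linked small-subunit gene, had 255, 303 and 231 CPM in AA and 159, 125 and 178 CPM in DMSO (0.77, SE 0.16, adjusted p = 0.00553). None of these 3 overlapped between groups. Rps3a2, a copy of Rps3a1 that is a member by its symbol, had 52.3, 31.5 and 16.7 CPM in AA and 0, 0 and 34.7 CPM in DMSO. It was called (adjusted p = 0.0415) although DMSO replicate 3 lay inside the AA range, and it was negative (-0.19) with the term for the library sets. Rps3a1 and its copies together were higher in AA, at 297, 334 and 251 CPM against 169, 129 and 201 CPM in DMSO (0.83, SE 0.18, adjusted p = 0.0049).

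Among the smallest changes that passed on own rows, values were close to one another. Rps20 had 68.2, 82.6 and 68.2 CPM in AA and 55.2, 50.7 and 56.8 CPM in DMSO (log2 fold change 0.42, limma adjusted p = 0.0417). Rpl27a had 59.9, 46.8 and 48.6 CPM in AA and 39.1, 39.0 and 35.9 CPM in DMSO (0.43, adjusted p = 0.0492). In both own rows the lowest AA value lay above the highest DMSO value. With copies summed Rps20 did not pass (0.37, limma adjusted p = 0.0549). Rpl27a, with 34.4% of its family's reads on its own row, changed by more with copies (0.65, limma adjusted p = 0.00299). Rpl41, the shortest ribosomal protein and on own rows, with 322 CPM per kilobase of transcript, the highest member, had 177, 173 and 140 CPM in AA and 132, 103 and 120 CPM in DMSO (0.46, SE 0.15, adjusted p = 0.0369). On own rows Rps2 followed at 318 CPM per kilobase and Rpl7a at 305. With copies summed the order differed, with Rps2 at 522, Rpl7a at 339, Rpl10 at 333 and Rpl41 at 322 CPM per kilobase. Rpl7a had 323, 288 and 323 CPM in AA and 231, 258 and 249 CPM in DMSO, without overlap, but did not pass on its own row (0.34, SE 0.13, adjusted p = 0.0634) and passed with copies (0.42, adjusted p = 0.0296).

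Rps6, the substrate of S6 kinase, had 128, 162 and 116 CPM in AA and 106, 108 and 115 CPM in DMSO (log2 fold change 0.28, SE 0.15, limma adjusted p = 0.165). Of its family's reads, 50.6% lay on its own row, and with copies it was higher (0.50, SE 0.13, adjusted p = 0.0128). Rps27a, made as a fusion with ubiquitin, had 154, 175 and 151 CPM in AA and 107, 109 and 103 CPM in DMSO, with no overlap (0.58, SE 0.13, adjusted p = 0.00611).

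At the other end, 22 families did not pass. Rps21 had 19.9, 21.7 and 13.8 CPM in AA and 20.1, 19.4 and 15.8 CPM in DMSO (log2 fold change -0.01, SE 0.21, limma adjusted p = 0.969), Rps29 had a change of 0.04 (SE 0.20, adjusted p = 0.888) and Rps27 one of 0.06 (SE 0.22, adjusted p = 0.861). These 3, all of the small subunit and named after their values were seen, held over 99% of their reads on their own rows, and their groups overlapped. Their coding sequences are short. Over the 77 families the log2 fold change correlated with coding length (Spearman rho 0.48) and with mean level (rho 0.42), both across genes that share libraries and are not independent replicates. Of the 39 families with a coding length of at least the median of 456 bases, 34 were higher (median 0.58). Of the 38 shorter ones, 21 were higher (median 0.46). Over all rows with copies summed, 22.6% were higher.

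Paralogs were set against their partners as a log2 ratio within each library, tested by an exact two-sided permutation over the 6 libraries, for which the smallest possible p is 0.1. Of 5 pairs with both genes above the filter, 3 had groups that did not overlap (exact p = 0.1, 0.167 after Benjamini-Hochberg adjustment over the 5), so none could pass at 0.05. On own rows Rpl36al, which the rule leaves out and whose protein is nearly identical to that of Rpl36a, fell behind its partner. The ratio was 0.07, 0.56 and 0.60 in AA and 1.37, 1.33 and 1.06 in DMSO, a difference of -0.84. Only 33.8% of the Rpl36a family's reads lay on its own row. With copies Rpl36a had 87.0, 90.5 and 76.7 CPM in AA and 50.6, 45.3 and 51.3 CPM in DMSO, so the level of the ratio depends on the reading. The copy Rpl36a-ps3 was 87.5% identical to Rpl36a, with 40 differences in 318 coding bases. Which gene its reads belong to was not tested. Rpl36a itself was higher in AA (0.76, SE 0.18, limma adjusted p = 0.0088), and Rpl36al had 35.7, 39.7 and 39.3 CPM in AA and 43.2, 46.2 and 33.4 CPM in DMSO (-0.08, adjusted p = 0.724). Rps27l, known as a p53 target in human cells, was higher than its partner by 0.78 more in AA, with ratios of 0.50, 0.56 and 0.98 in AA and -0.01, 0.20 and -0.48 in DMSO. Rps27l had 60.2, 91.5 and 63.9 CPM in AA and 49.6, 41.8 and 28.9 CPM in DMSO (0.83, SE 0.22, adjusted p = 0.0146), while Rps27 had 42.4, 61.6 and 31.8 CPM in AA and 50.01, 36.3 and 40.7 CPM in DMSO (0.06, adjusted p = 0.87).

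Rps4l, annotated as a processed pseudogene, was at 10.8, 11.4 and 11.2 CPM in AA and 4.69, 3.69 and 3.26 CPM in DMSO (log2 fold change 1.33, SE 0.22, limma adjusted p = 0.00161), and its ratio to Rps4x was higher by 0.55 in AA; whether its row holds reads of Rps4x was not tested. Both stood clear of the DMSO values, and Rps4l was also above the family median (1.02, adjusted p = 0.011). Rpl7l1 was higher in AA (77.9, 92.4 and 86.5 CPM in AA, 60.8, 66.7 and 52.3 CPM in DMSO; 0.51, SE 0.14, adjusted p = 0.0209) by less than Rpl7, and the ratio differed by -0.25 (exact permutation p = 0.2, adjusted 0.25). Rpl22l1 had 8.87, 15.4 and 10.6 CPM in AA and 12.4, 9.47 and 6.14 CPM in DMSO (0.30, adjusted p = 0.44), and its ratio to Rpl22 differed by -0.08 (exact permutation p = 0.8). Rpl22, with 61.6, 57.8 and 52.1 CPM in AA and 40.7, 45.5 and 44.9 CPM in DMSO, did not pass (0.38, adjusted p = 0.0597).

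**Figure D5:**
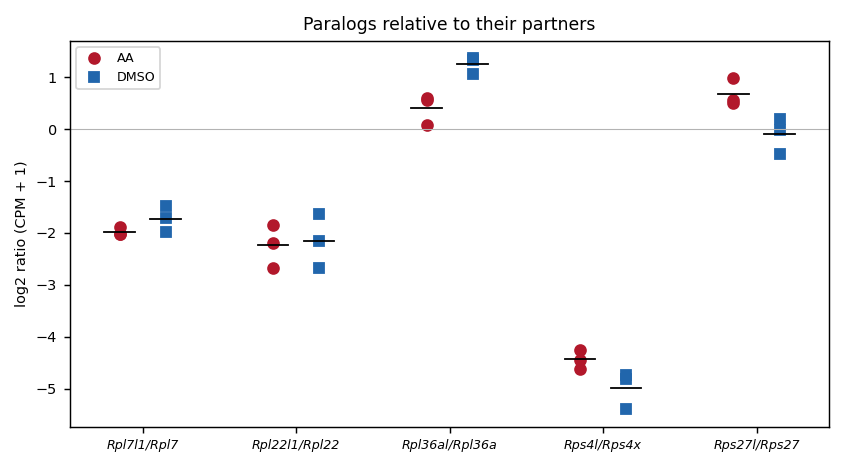
Log2 ratio of each paralog to its partner, on CPM + 1, in the 3 AA libraries (red circles, left of each pair) and the 3 DMSO libraries (blue squares, right), with group means as bars. AA and DMSO do not overlap for Rpl36al over Rpl36a, Rps4l over Rps4x and Rps27l over Rps27, and overlap for the other pairs.

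The promoters of 3 genes are printed because 76 of 77 families had positive log2 fold changes with copies summed. The median change was smaller with library medians equalised (0.28), and shared control by promoters was not tested. Rpl12 and Rpl15 had the largest log2 fold changes among the 77 families (1.00 and 0.84). Rpl24 (0.23, not passed) is shown for contrast, chosen with its values known. The RefSeq windows (GRCm38.p6) run from 250 bases before to 50 after the annotated start. They are Rpl12 at chr2:32961462-32961761, plus strand, Rpl15 at chr14:18270937-18271236, minus strand, and Rpl24 at chr16:55966025-55966324, plus strand. Capitals mark the searched letter strings, named with their shares after the sequences (either strand, overlaps allowed), and runs of 8 or more C or T between 20 bases before and 50 after the start.
Rpl12: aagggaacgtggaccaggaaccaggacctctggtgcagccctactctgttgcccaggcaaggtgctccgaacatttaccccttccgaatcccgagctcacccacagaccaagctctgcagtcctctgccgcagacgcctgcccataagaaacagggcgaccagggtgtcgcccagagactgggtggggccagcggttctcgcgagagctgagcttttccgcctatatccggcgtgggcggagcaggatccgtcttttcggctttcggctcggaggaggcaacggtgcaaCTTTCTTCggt
Rpl15: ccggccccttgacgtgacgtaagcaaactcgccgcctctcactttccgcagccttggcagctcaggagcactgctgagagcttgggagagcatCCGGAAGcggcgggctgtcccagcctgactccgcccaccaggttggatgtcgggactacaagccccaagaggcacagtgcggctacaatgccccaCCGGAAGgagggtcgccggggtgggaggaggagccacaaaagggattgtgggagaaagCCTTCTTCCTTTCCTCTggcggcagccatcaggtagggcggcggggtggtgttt
Rpl24: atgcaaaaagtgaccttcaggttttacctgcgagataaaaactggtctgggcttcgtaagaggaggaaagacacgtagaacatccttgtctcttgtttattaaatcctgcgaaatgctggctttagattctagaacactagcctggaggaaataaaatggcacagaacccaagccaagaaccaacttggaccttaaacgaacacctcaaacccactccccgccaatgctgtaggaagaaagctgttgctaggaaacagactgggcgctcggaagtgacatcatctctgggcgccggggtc

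A promoter was found for 62 of the 87 members. A pyrimidine run of at least 8 bases near the start was in 75.8% of them, and in 28.5% of the 27025 genes with a promoter in the table. CCGGAAG, a letter string bound by ETS factors, was in 40.3% and 9.93%, AAGATGG (YY1) in 16.1% and 7.28%, GCATGCGC (NRF1) in 4.84% and 3.05%, CACGTG (E-box) in 9.68% and 8.09%, and TATAAA in 11.3% and 15.7%. These are letter matches, not sites. Of 45 families with a pyrimidine run 33 were higher (median 0.54), and of 12 without 8 were higher (median 0.50). With CCGGAAG 17 of 24 families were higher (median 0.52), and without it 24 of 33 (median 0.56). Over all rows with copies summed, 22.6% were higher.

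Other genes of translation were read beside the ribosomal proteins, from lists written with earlier results of these data known. The lists share genes, such as Rack1, so their counts are not separate and cannot be added. Of 25 further 5′ TOP mRNAs, 14 were higher and 0 lower, beside 22.3% and 8.66% of all tested genes (median log2 fold change 0.45). At an unadjusted p under 0.05 the counts were 18 and 0, beside at least those shares of all tested genes. With voom they were 7 and 0 after adjustment. With library medians equalised, 3 of the 25 were higher, 12.0% beside 11.2% of all tested genes. Rack1, a scaffold on the small subunit, had 275, 316 and 273 CPM in AA and 163, 157 and 175 CPM in DMSO (0.80, SE 0.13, limma adjusted p = 0.0013). Npm1, a nucleolar chaperone, had 166, 172 and 157 CPM in AA and 82.1, 68.5 and 104 CPM in DMSO (0.97, SE 0.16, adjusted p = 0.00143). Vim, an intermediate filament gene and also a mesenchymal marker, had 18.9, 18.7 and 15.4 CPM in AA and 5.61, 6.71 and 6.45 CPM in DMSO (1.36, SE 0.20, adjusted p = 0.000818), beside fibroblast markers that summed to 96.4 to 109 CPM in AA and 52.5 to 73.7 CPM in DMSO. Of 7 proteins that associate with the ribosome, 2 were higher, 28.6% and so near the 22.3% of all tested genes: Rack1 and Btf3, a subunit of the nascent chain complex (0.41, SE 0.13, adjusted p = 0.0374).

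Of 42 initiation factors, 16 were higher (38.1%, beside 22.3% of all tested genes) and 1 was lower (2.38%, beside 8.66%), with a median log2 fold change of 0.37, beside 0.21. With library medians equalised, 6 were higher (14.3%, beside 11.2% of all tested genes) and 1 lower. Eif4a1, the cap-complex helicase, had 184, 239 and 236 CPM in AA and 125, 93.2 and 87.7 CPM in DMSO (1.11, SE 0.17, limma adjusted p = 0.000936). Eif6, which keeps large subunits from joining too early, had 93.0, 111 and 110.4 CPM in AA and 43.8, 64.8 and 45.6 CPM in DMSO (1.03, SE 0.17, adjusted p = 0.00148). Eif3j2 changed by 1.03 (SE 0.19, adjusted p = 0.00259). The gene that was lower, Eif4g3, was named after its values were seen (-0.83, adjusted p = 0.00273). Of 12 tested genes on the list of elongation and termination factors, 5 were higher (41.7%, beside the same 22.3%), with a median of 0.40. They were Eif5a2 (1.54), the release factor gene Etf1 (0.78), Eef1b2 (0.64) and, named after their values were seen, Eef1e1 (0.92) and Eef1g (0.38). Despite its symbol, Eef1e1 is not itself an elongation or termination factor.

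Of 20 genes of mTOR and S6 kinase control, 6 were higher and 2 lower, near the 22.3% higher and 8.66% lower of all tested genes; with library medians equalised, 2 were higher and 4 lower. Ddit4l, an inhibitor of mTOR signalling, had 34.3, 63.0 and 48.3 CPM in AA and 3.31, 3.08 and 4.32 CPM in DMSO (log2 fold change 3.40, SE 0.24, limma adjusted p = 8.7e-06). Sesn2, a leucine sensor and p53 target that restrains mTORC1, had 152, 138 and 149 CPM in AA and 52.1, 76.0 and 45.2 CPM in DMSO (1.36, SE 0.18, adjusted p = 0.000431). The other 4 that were higher, named after their values were seen, were the mTORC1 activator Rheb (0.58, adjusted p = 0.0226), the mTOR complex subunit Mlst8 (0.74, adjusted p = 0.0339), the kinase gene Rps6ka2 (0.84, adjusted p = 0.0258) and Sesn3, of the same family as Sesn2 (0.56, adjusted p = 0.0254). The genes that were lower encode the kinase and its scaffold. Rptor had 32.7, 32.7 and 31.0 CPM in AA and 58.6, 83.5 and 61.2 CPM in DMSO (-1.04, SE 0.16, adjusted p = 0.00118), and Mtor, named after its values were seen, changed by -1.03 (adjusted p = 0.00806). Groups did not overlap in Ddit4l, Sesn2, Rptor or Mtor.

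Of the 77 mitochondrial ribosomal protein genes, 12 were higher and 0 lower, 15.6% beside 22.3% of all tested genes, with a median log2 fold change of 0.17. At an unadjusted p under 0.05 the counts were 18 and 2, beside at least 22.3% and 8.66% of all tested genes. With voom they were 2 and 6 after adjustment. Mrps17 had the smallest p, with 54.4, 78.9 and 80.1 CPM in AA and 34.5, 35.7 and 34.0 CPM in DMSO (0.99, SE 0.17, limma adjusted p = 0.00181). Mrpl10 (0.66, adjusted p = 0.00636) and Mrpl9 (0.62, adjusted p = 0.0117) followed. With library medians equalised the mitochondrial set had 2 higher and 9 lower, and its median was -0.09, whereas that of the cytosolic members was 0.16. The difference between these sets was not tested.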

How the data were processed

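The single table the authors deposited (32544 genes, 6 libraries) is on a log10 scale; its values are log10(CPM + 1), read from the values, since undoing the logarithm gives columns that sum to the total CPM implies. Per the submitters' processing notes, bcl2fastq 2.19 and kallisto were used and the build was mm10; the sources used here do not give the role of kallisto, the annotation or the gene-level summing. Per the labels' protocols, the kit was stranded and selects mRNA. After undoing the logarithm, 100% of values were whole reads within 0.1 read. CPM were turned to log2(CPM + 1). Rows reaching 1 CPM in 3 or more libraries entered the test with limma 3.58.1 (R 4.3.3, variance trend, two-sided, Benjamini-Hochberg over all tested genes, threshold 0.05); the code was tested on simulated data. SE is limma's moderated standard error.

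Copies were rows named after a member with -ps (271) and pseudogenes or Gm-numbered genes matched with BLAST 2.17.0 (634; at least 90% identity over at least 50% of the copy), from GENCODE M21 (GRCm38); 4 further copies are members. Named genes were the 6 called members with the largest and the 6 with the smallest log2 fold change, the 3 highest in CPM per kilobase, Rpl5, Rpl11, Rpl23, Rps6, Rplp0 to Rplp2, Rpsa, Rps27a, the paralog pairs and up to 3 genes of each list. Members and lists were chosen with earlier results of these data known. Alternatives were other scalings (library medians, quantiles, TMM, totals without mitochondrial or predicted genes, scaling to the family), copies summed, other filters (none, 4 CPM), pseudocounts (5 and 0.1), variance models, voom on recovered reads, reads thinned to the smallest library, a replicate block, a library-set term and leaving out each library. Values of some members are not reported here. The sum over all copies, and its combinations, was added after the data were seen.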

Additional observations from a re-analysis of the deposited data

How the results depend on the processing

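Members called higher numbered 42 as deposited, 10 with library medians equalised, 25 after quantile normalization, 13 with TMM, 2 scaled to the family, 13 with no filter, 27 with no variance trend, 13 with voom, 13 with the library-set term and 23 to 36 without each library in turn. Members called lower numbered 0, but 1 scaled to the family and 0 to 3 without each library. Families with copies summed numbered 55 higher, 15 with library medians equalised, 12 with the library-set term and 36 to 51 without each library; none was lower in any of these. For the families without each library, the share of all rows with copies summed is not given here. The median log2 fold change of tested members was 0.42, and 0.16 with library medians equalised, 0.22 with TMM, 0.11 scaled to the family and 0.22 with voom. That of families was 0.53, and 0.28 with library medians equalised. The difference in the share of reads was 0.250 percentage points, 0.343 with named copies and 0.417 with all copies.

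All tested genes called higher numbered 3187, and 1606, 1822, 1932, 1013, 1009, 1955 and 1058 with library medians equalised, quantiles, TMM, scaling to the family, no filter, voom and the library-set term, and 1842 to 2839 without each library. Those called lower numbered 1239, and 2422, 2077, 2064, 2027, 366, 1994 and 423 under the same settings in that order, and 803 to 1141 without each library. Translation list genes numbered 36 higher and 3 lower, and with library medians equalised 14 and 6, with TMM 18 and 6, scaled to the family 9 and 5, with no filter 7 and 1, with voom 19 and 5, with the library-set term 9 higher, and 23 to 33 higher without each library. Mitochondrial ribosomal proteins numbered 12 higher and 0 lower, and with library medians equalised 2 and 9, quantiles 2 and 8, TMM 2 and 6, scaled to the family 1 and 7, voom 2 and 6, no filter 3 higher and the library-set term 3 higher, with 1 lower under totals without mitochondrial genes, without predicted genes or with robust variance, and 3 to 12 higher and 0 to 1 lower without each library.

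Signs turned in genes that had not passed, apart from Rps3a2. With library medians equalised, TMM and voom in that order, Rpl23 was at -0.061, -0.00904 and -0.00950, Rpl3 at -0.14, -0.093 and -0.094, Rpl10 at -0.15, -0.10 and -0.10, Rpl39 at -0.10, -0.048 and -0.044, and Rps27 at -0.20, -0.15 and -0.14. After quantile normalization Rpl39 was at -0.055, Rps27 at -0.13 and Rpl22l1 at -0.0064. With the library-set term Rps3a2 was at -0.19, Rplp0 at -0.10, Rpsa at 0.62 and Rpl36al at 0.19. With named and with all copies, Rps2 was at 0.60 and 0.54 and Rpsa at 0.67 and 0.67. Rpsa was at 0.072 with array weights and 0.00866 with thinned reads. Without each library Rpl10 ran from -0.16 to 0.33, Rpl39 from -0.0064 to 0.40, Rps27 from -0.19 to 0.28, Rps2 from -0.45 to 0.052, Rpsa from -0.33 to 0.16, Rpl36al from -0.22 to 0.0080, and the ratio of Rpl22l1 to Rpl22 from -0.34 to 0.18. Causes were not tested.

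With a replicate block 30 members, 45 families and 2768 of all tested genes were higher. For the families, the share of all rows with copies summed is not given for this fit. The labels do not say what the replicate numbers stand for. Deviations of same-numbered libraries correlated at -0.11, -0.16 and -0.02. With 3 libraries a group this cannot show whether same-numbered libraries were handled together. Of 48 named genes tested, 35 were called, and 23 of these were called whichever library was left out. Many named genes were chosen by their calls, so these counts do not measure how stable calls were over all genes. With reads thinned to the smallest library, 40 members and 3090 of all tested genes were higher. The number of libraries, 3 a group, limits the precision, and within a stretch of identical sequence a gene cannot be told from its copy.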
